A study of Homo sapiens with 6 samples.

Results

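OBSL1 and 5 genes tied to it by complex or family, CUL7, CCDC8, FBXW8, CUL9 and SPEG, were followed in RNAseq data from C4-2B cells and their CBZ-resistant subclone RC4-2B. They were taken by gene symbol and make up 6 of the 58735 genes in the deposited tables. OBSL1 was chosen by its measured counts, for its loss in RC4-2B, so its values are given as a description without a test, while the other 5 were taken as its partners and kin. C4-2B is a human castration resistant prostate cancer line derived from LNCaP, and the C4-2B libraries came from untreated parental cells. RC4-2B was raised from it by 4 months of repeated 72 h exposures to the taxane cabazitaxel (CBZ), each followed by recovery, at concentrations stepped up from 0.1 nM to 20 nM. RC4-2B is thus 1 selected subclone, and differences carried by that subclone and differences caused by the drug cannot be told apart. Per the labels both lines grew in medium with 10% FBS, although the methods of the study also name charcoal-stripped serum for the RNAseq cultures, and each was sequenced as 3 biological replicates.

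CUL7 is the cullin scaffold of the 3M complex, OBSL1 is the cytoskeletal adaptor that ties CUL7 to CCDC8, and CCDC8 brings the complex to membranes. Mutations in any of these genes cause 3-M syndrome, a growth disorder, and the complex is known to keep microtubules and the genome intact. FBXW8 is the F-box receptor that hands substrates such as IRS1 to CUL7, CUL9 is the closest paralog of CUL7 and is restrained by the 3M complex, and SPEG is a muscle kinase related to OBSL1.

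The libraries held 15707134 to 18052517 reads on genes, so 3 counts, taken here as the detection floor, equalled 0.17 to 0.188 CPM (read counts scaled to library size, with TMM factors). RC4-2B replicate 2 stood apart: its log2 CPM differed from those of the other RC4-2B replicates with an SD over genes of 0.551 and 0.628, against 0.244 between those replicates and 0.166 to 0.22 among the C4-2B libraries. Its deviation moved with the GC content of the transcripts. Spearman correlations across genes were 0.75 for replicate 1 minus replicate 2 and -0.67 for replicate 2 minus replicate 3. In both pairs replicate 2 was thus the lower at high GC content, a description since genes are not independent. Where the call of a named gene turned without this library, both values are given. As for identity, all 8 luminal prostate markers were expressed, with a summed level of 3569 to 3620 CPM in the parental libraries and 2488 to 2963 CPM in the resistant ones, and 2 of them were lower in RC4-2B (KLK3 and TMPRSS2, given last). Of the 3 basal markers, named after their values were seen, KRT5 and TP63 were listed at 0 counts in all libraries and KRT14 held 4 to 17 reads.

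OBSL1 RNA was close to absent from RC4-2B. The gene lies on chromosome 2, minus strand, from 219550729 to 219571859 (GRCh38, as deposited). The 250 bases before its RefSeq start (GRCh38.p14, chr2:219571540-219571789, minus strand) are shown because OBSL1 is the member whose RNA differed most, with each CG dinucleotide, the site of DNA methylation, in capitals.
OBSL1: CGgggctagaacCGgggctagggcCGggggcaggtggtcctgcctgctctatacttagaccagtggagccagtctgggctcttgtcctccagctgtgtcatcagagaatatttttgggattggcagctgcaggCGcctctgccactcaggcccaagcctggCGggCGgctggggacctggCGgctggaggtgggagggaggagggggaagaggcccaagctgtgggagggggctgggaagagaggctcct
This window held 7 CG dinucleotides, searched as the letters CG, which read alike on both strands, and 58.9% of 35116 RefSeq promoter windows of that length held at least as many. It lies within the longer gene span of the deposited table. DNA methylation was not measured in these data.

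The C4-2B libraries held 142, 100 and 85 OBSL1 reads and the RC4-2B libraries 3, 2 and 4. Each RC4-2B library was thus at or within 1 read of the detection floor, and the groups were far apart with no overlap; for 17.1% of all tested genes every RC4-2B library lay below every C4-2B library. On the CPM scale these were 8.47, 5.66 and 4.84 in C4-2B against 0.188, 0.114 and 0.235 in RC4-2B, with means of 6.32 ± 1.91 and 0.179 ± 0.061 (SD, n = 3 each). Scaled for library size, the summed 9 reads of RC4-2B were 2.83% of the summed 327 reads of C4-2B (exact 95% interval 1.28 to 5.44%, counting error only), a level 35.3-fold lower (18.4 to 78.0). The fitted log2 fold change was -5.09, the 10th most negative of the 15054 genes tested, and -4.85 without RC4-2B replicate 2. C4-2B itself held little OBSL1 RNA: its mean of 0.589 FPKM, a level per gene length, was above only 16% of the tested genes.

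INHA, on the opposite strand, shared 2698 bases of gene span with OBSL1 but 0 exonic bases, and it held 0, 5 and 2 reads in C4-2B and 0 in each RC4-2B library. INHA was named for this overlap after its values were seen.

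**Figure D1:**
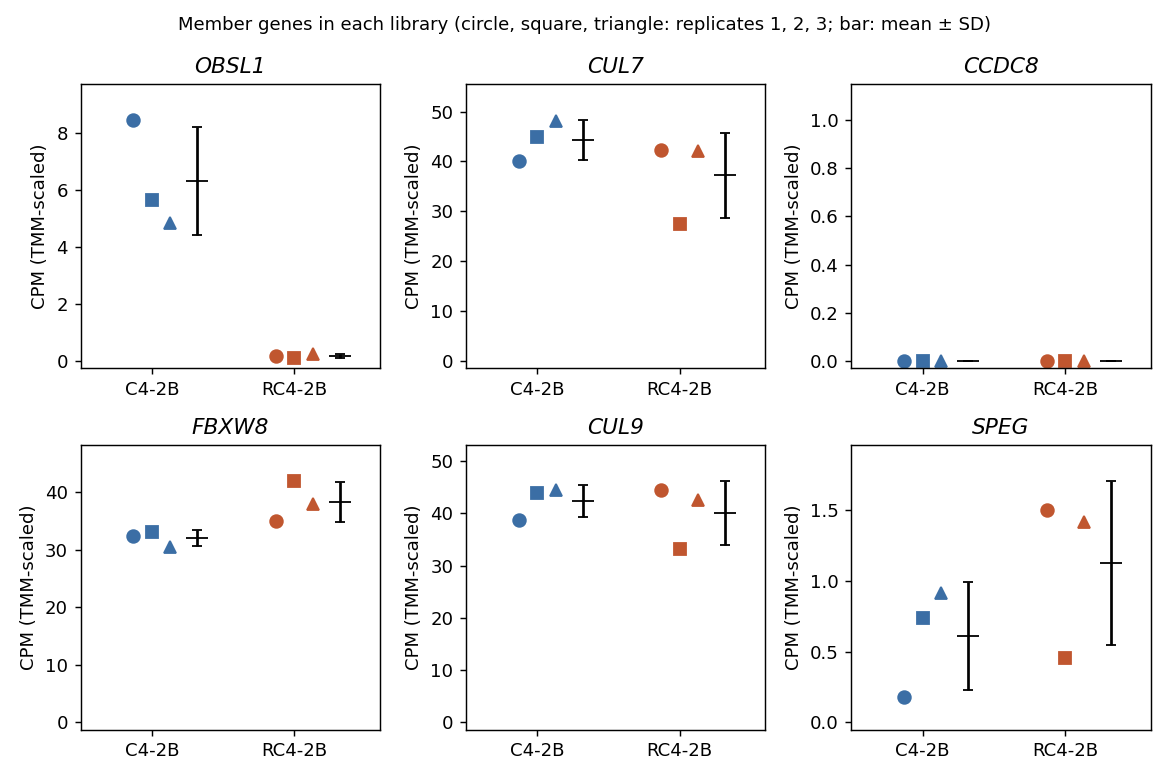
TMM-scaled CPM (vertical axes, each from 0) of the 6 genes in the 3 C4-2B (blue) and 3 RC4-2B (orange) libraries; bars give the mean and SD. OBSL1 goes from 4.84 to 8.47 CPM in C4-2B to at most 0.235 CPM in RC4-2B, CCDC8 is at 0 in every library, and the RC4-2B square, replicate 2, is the lowest of its group for OBSL1, CUL7, CUL9 and SPEG and the highest for FBXW8.

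CCDC8, the third gene of the 3M complex, could not be compared between the lines. It held 0 reads in each of the 6 libraries, out of 102739923 reads in all. The floor of 3 counts equals 0.17 to 0.188 CPM, or 0.0509 to 0.0563 FPKM, in a single library. Finding 0 reads does not show that CCDC8 RNA was absent. The gene lies on chromosome 19, minus strand, from 46410329 to 46413662. The 152 bases before that span (chr19:46413663-46413814, minus strand, RefSeq GRCh38.p14) are shown as the counterpart of the OBSL1 window, since these 2 genes had the lowest RC4-2B levels of the 6.
CCDC8: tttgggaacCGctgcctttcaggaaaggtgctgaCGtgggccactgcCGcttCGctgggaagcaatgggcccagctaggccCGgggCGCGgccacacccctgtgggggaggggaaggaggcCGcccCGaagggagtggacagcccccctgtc
This window held 9 CG dinucleotides, and 38.0% of RefSeq windows cut to the same length held at least as many.

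CUL7, the scaffold of the complex, was well expressed in both lines (chromosome 6, minus strand, 43037617 to 43053945). Its CPM were 40.2, 44.9 and 48.1 in C4-2B against 42.2, 27.4 and 42.1 in RC4-2B. The groups overlapped, and the low RC4-2B value was that of replicate 2. The log2 fold change was -0.25 (SE 0.18, edgeR quasi-likelihood test, adjusted p = 0.413), and without RC4-2B replicate 2 it was -0.07. With an offset for GC content the estimate was 0.0006. On the opposite strand, KLC4, a kinesin light chain gene, shares 486 exonic bases with CUL7. It held 193 to 320 reads per library, against 481 to 844 for CUL7, and how reads in the shared bases were assigned is not given in the sources used here.

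FBXW8, the F-box partner of CUL7, showed the smallest p of the 4 other members tested (chromosome 12, plus strand, 116910956 to 117031148). Its CPM were 32.5, 33.2 and 30.6 in C4-2B against 35.0, 42.0 and 38.1 in RC4-2B. Every RC4-2B library lay above every C4-2B library, as was the case for 17% of all tested genes (34.1% had groups that did not overlap, in one direction or the other). The log2 fold change of 0.26 (SE 0.12) did not pass the test (edgeR adjusted p = 0.255), and it was 0.19 without RC4-2B replicate 2 (edgeR adjusted p = 0.24).

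CUL9, the paralog restrained by the 3M complex, lies near CUL7 on the other strand (43182175 to 43224587). The distance between the lower coordinates of both genes is 144.6 kb. It had CPM of 38.8, 43.9 and 44.5 in C4-2B against 44.6, 33.2 and 42.5 in RC4-2B. The groups overlapped, and the log2 fold change was -0.08 (SE 0.14, edgeR adjusted p = 0.751). Its sign turned, to 0.04, without RC4-2B replicate 2.

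SPEG, the muscle kinase, lies near OBSL1 on the opposite strand (chromosome 2, 219434846 to 219498287). The distance between the lower coordinates of both genes is 115.9 kb. It held 3, 13 and 16 reads in C4-2B against 24, 8 and 24 in RC4-2B, low counts in every library. The groups overlapped, the log2 fold change was 0.86 (SE 0.61, edgeR adjusted p = 0.407), and at these counts only large differences were detectable. With single libraries left out it ranged from 0.44 (without C4-2B replicate 1, edgeR adjusted p = 0.734) to 1.26 (without C4-2B replicate 3), and it was 1.24 without RC4-2B replicate 2 (edgeR adjusted p = 0.111) and 1.29 with the GC offset.

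Of these 4 members, 0 passed the adjusted p threshold of 0.05, against 1.98% of the 15054 tested genes (162 genes, or 1.08%, with more RNA in RC4-2B and 136, or 0.903%, with less). At an unadjusted p under 0.05 the count was also 0. By adjusted p it was 0 in DESeq2 and in each of the other alternative fits. A p above the threshold does not show that their levels were alike.

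Set against one another per gene length, the members had a clear order, save for FBXW8 and CUL7 in RC4-2B. In C4-2B the deposited FPKM averaged 7.07 ± 0.66 for CUL7, 5.56 ± 0.20 for FBXW8, 3.10 ± 0.23 for CUL9, 0.589 ± 0.176 for OBSL1 and 0.0305 ± 0.0192 for SPEG (SD, n = 3 each), and CCDC8 was at 0. No neighbours in that order overlapped. In RC4-2B they averaged 6.77 ± 0.78 for FBXW8, 6.01 ± 1.26 for CUL7, 2.98 ± 0.39 for CUL9, 0.0567 ± 0.0285 for SPEG and 0.0169 ± 0.0055 for OBSL1. FBXW8 and CUL7 overlapped there, and OBSL1 ranked below SPEG. The FBXW8 to CUL7 ratio of FPKM was 0.88, 0.805 and 0.693 in C4-2B against 0.902, 1.67 and 0.984 in RC4-2B. FBXW8 was thus the higher of the pair only in RC4-2B replicate 2. OBSL1 amounted to 12.4, 7.38 and 5.9% of the CUL7 FPKM in the C4-2B libraries and to 0.26, 0.243 and 0.327% in the RC4-2B libraries. The adaptor was thus the scarcer RNA of the pair in both lines. The CUL7 to CUL9 ratio of FPKM was 2.25, 2.23 and 2.35 in C4-2B against 2.06, 1.8 and 2.16 in RC4-2B.

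**Figure D2:**
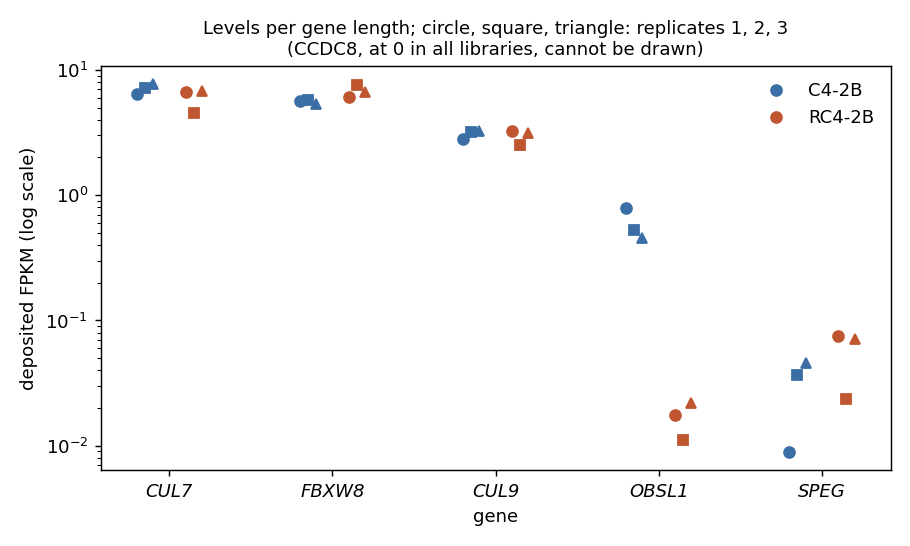
Deposited FPKM on a log axis for 5 of the 6 genes, with 1 point per library in C4-2B (blue) and RC4-2B (orange); CCDC8, at 0 throughout, cannot be drawn. CUL7, FBXW8 and CUL9 stay between 2.53 and 7.7 FPKM in both lines, whereas OBSL1 drops from above SPEG to below it.

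Around these genes lie other components of the same ubiquitin ligases. All 7 other cullin scaffolds were tested, and 0 passed in either direction, with a median log2 fold change of 0.21 against 0.01 over all tested genes. CUL1, the scaffold of the SCF ligases, had a log2 fold change of 0.26 (edgeR adjusted p = 0.307), and ANAPC2, the cullin-like subunit of the anaphase-promoting complex, had -0.53 (edgeR adjusted p = 0.203). Without RC4-2B replicate 2 the CUL1 log2 fold change was 0.09. ANAPC2 was -0.30 and passed without that library (edgeR adjusted p = 0.039), and with the GC offset it was -0.15. Among the 28 core subunits and regulators 0 passed, with a median of 0.09. In that list RBX1, the RING subunit that recruits the ubiquitin-charged enzyme to CUL7, had mean levels of 94.1 ± 3.67 CPM in C4-2B against 76.8 ± 4.70 CPM in RC4-2B (SD, n = 3 each). The groups did not overlap, as for 34.1% of all tested genes, and the log2 fold change of -0.29 (SE 0.11) gave an edgeR adjusted p of 0.177. Over 16 fits RBX1 ranged from -0.42 to -0.26 and passed in 2. RNF7, the RING subunit used by CUL5, had -0.30 (edgeR adjusted p = 0.176). With the GC offset RNF7 was -0.47 and passed (edgeR adjusted p = 0.047). SKP1, the adaptor that joins FBXW8 to CUL7, had 0.06 (edgeR adjusted p = 0.785). COPS3, a subunit of the COP9 signalosome that strips NEDD8 from cullins, had the smallest p of the list, with 166, 161 and 156 CPM in C4-2B against 209, 330 and 218 in RC4-2B. All RC4-2B libraries lay above all C4-2B libraries, as for 17% of all tested genes. The log2 fold change of 0.65 (SE 0.17) had an edgeR adjusted p of 0.0986. Without RC4-2B replicate 2 it was smaller, 0.41, and passed (edgeR adjusted p = 0.00308).

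Of 9 other WD40 F-box receptors, the family of FBXW8, 7 were tested and 0 passed. FBXW5 had a log2 fold change of -0.43 (edgeR adjusted p = 0.22), which turned positive with the GC offset, and BTRC, the receptor for phosphorylated beta-catenin, had 0.33 (edgeR adjusted p = 0.309).

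Genes whose proteins are reported substrates or binding partners of CUL7 or CUL9 were read only as RNA, and their proteins were not measured here. Of 7 such genes 6 were tested and 0 passed, with a median log2 fold change of -0.20. IRS1, the insulin receptor substrate degraded through CUL7 and FBXW8, had 24.9, 26.2 and 23.9 CPM in C4-2B against 20.1, 14.1 and 16.2 CPM in RC4-2B. All RC4-2B libraries lay below all C4-2B libraries, as for 17.1% of all tested genes. The log2 fold change was -0.58 (SE 0.16, edgeR adjusted p = 0.107). Without RC4-2B replicate 2 it was -0.46 and passed (edgeR adjusted p = 0.0225). MAP4K1, a kinase of T cell signalling, had a log2 fold change of -0.55 (edgeR adjusted p = 0.228). GORASP1, a Golgi stacking protein, had -0.20 (edgeR adjusted p = 0.418), and CCND1, cyclin D1, had -0.19 (edgeR adjusted p = 0.318). BIRC5, the apoptosis inhibitor survivin, had 0.13 (edgeR adjusted p = 0.563).

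The insulin-like growth factor axis, which 3-M syndrome touches, was covered by 15 genes, of which 11 were tested and 0 passed, with a median log2 fold change of -0.05. IGF1R, the receptor, came closest, with 79.5, 84.0 and 77.8 CPM in C4-2B against 106, 121 and 125 CPM in RC4-2B. The groups did not overlap, as for 34.1% of all tested genes, and the log2 fold change of 0.55 (SE 0.11) had an edgeR adjusted p of 0.051. Without RC4-2B replicate 2 it was 0.53 and passed (edgeR adjusted p = 0.00178). IGFBP3, a binding protein of these growth factors, averaged 4.22 ± 0.63 CPM in C4-2B against 2.23 ± 0.36 CPM in RC4-2B (SD, n = 3 each), a log2 fold change of -0.92 (SE 0.23, edgeR adjusted p = 0.0869). IGFBP3 was -0.86 and passed without RC4-2B replicate 2 (edgeR adjusted p = 0.0387).

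Titin and related muscle proteins, the family to which OBSL1 and SPEG belong, numbered 16, of which 10 were tested and 0 passed, with a median log2 fold change of 0.26. TTN, titin, had 3.34, 4.08 and 4.16 CPM in C4-2B against 5.75, 7.70 and 6.52 CPM in RC4-2B. All RC4-2B libraries lay above all C4-2B libraries, as for 17% of all tested genes. The log2 fold change was 0.79 (SE 0.20, edgeR adjusted p = 0.0873). TTN was 0.67 and passed without RC4-2B replicate 2 (edgeR adjusted p = 0.0436). In that fit 1 gene of this list passed as higher and 1, not reported here by name, as lower. PALLD, palladin, an actin-bundling protein, had a log2 fold change of 0.35 (edgeR adjusted p = 0.238). Muscle cell markers were at or under the floor in all libraries for 8 of 9 genes, DES at 0 reads. The exception was MB, myoglobin, at 64.3 ± 4.32 CPM in C4-2B against 51.0 ± 15.5 CPM in RC4-2B (SD, n = 3 each), a log2 fold change of -0.33 (edgeR adjusted p = 0.365).

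**Figure D3:**
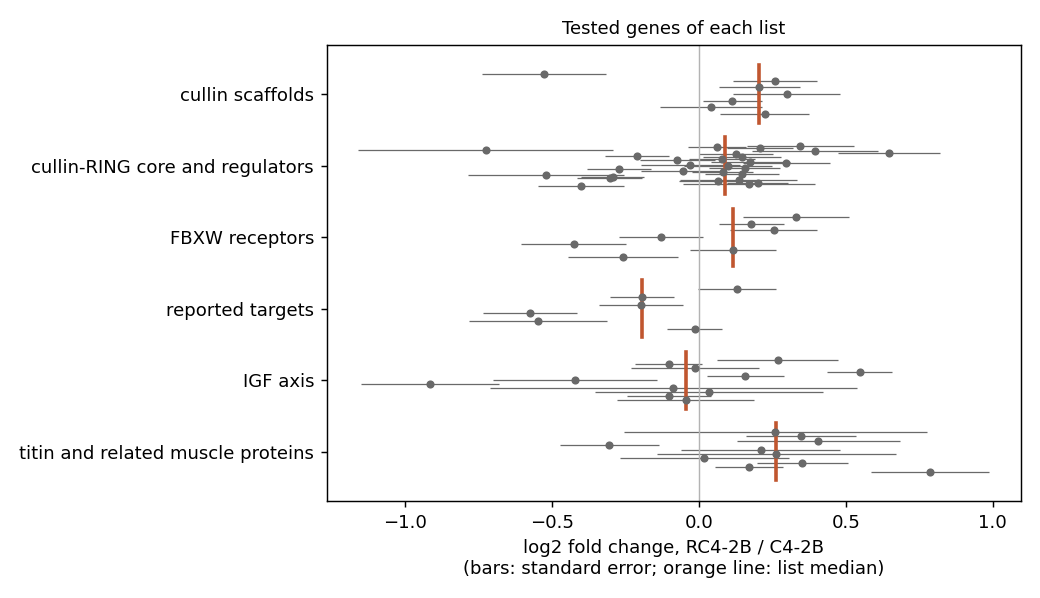
Log2 fold changes (RC4-2B over C4-2B, horizontal axis) of the tested genes of 6 lists; points are genes, bars standard errors and orange lines list medians. The medians lie between -0.20 and 0.26, and 0 genes of these lists passed the adjusted test.

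The tested genes next to OBSL1 differed less than OBSL1 did. Because OBSL1 was chosen for its loss, this contrast largely follows from that choice and is given as a description. Of 81 genes with their lower coordinate within 1 Mb of that of OBSL1, 26 were tested and 0 passed. Their median log2 fold change was -0.20, with a range of -1.18 to 0.86. The nearest tested genes were named for their position after their values were seen. They were TMEM198, 7.1 kb away by lower coordinate, with a log2 fold change of -1.18 (edgeR adjusted p = 0.208), and CHPF. CHPF, a chondroitin synthase factor 11.8 kb away by lower coordinate, had -0.50 (edgeR adjusted p = 0.241). TMEM198 held 30, 27 and 28 reads in C4-2B against 21, 5 and 10 in RC4-2B, low counts. CHPF had 86.0, 75.8 and 80.4 CPM in C4-2B against 58.3, 37.7 and 75.6 CPM in RC4-2B. For both genes every RC4-2B library lay below every C4-2B library, as for 17.1% of all tested genes. RC4-2B replicate 2 was the lowest for both. FEV, an ETS transcription factor, had 11.9, 8.38 and 9.05 CPM in C4-2B against 3.56, 3.71 and 5.88 CPM in RC4-2B. These groups did not overlap, as for 34.1% of all tested genes. The FEV log2 fold change of -1.16 (SE 0.25) had the smallest p of the neighbours (edgeR adjusted p = 0.0593). BCS1L, a chaperone of respiratory complex III, had -0.39 (edgeR adjusted p = 0.122). Without RC4-2B replicate 2 these were the 2 neighbours that passed, both lower, FEV at -1.04 (edgeR adjusted p = 0.00725) and BCS1L at -0.37 (edgeR adjusted p = 0.0214). FEV also passed in DESeq2 (adjusted p = 0.00211), and with the GC offset it was -0.58 and did not pass (edgeR adjusted p = 0.222).

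Near CUL7, 41 of 72 genes were tested and 1 passed, lower in RC4-2B, with a median log2 fold change of -0.22. The gene was PTK7, a Wnt co-receptor of the tyrosine kinase family, 38.7 kb from CUL7 by lower coordinate. It had 55.1, 55.3 and 58.1 CPM in C4-2B against 32.8, 20.8 and 32.6 CPM in RC4-2B. PTK7 fell by 0.97 on the log2 scale (SE 0.18, edgeR adjusted p = 0.036). The call was lost when any C4-2B library or RC4-2B replicate 3 was left out, with adjusted p values of 0.0938 to 0.186. Without RC4-2B replicate 2, 2 genes near CUL7 passed, both lower. UBR2, a ubiquitin ligase of the N-degron pathway, had 0.41 (edgeR adjusted p = 0.158).

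**Figure D4:**
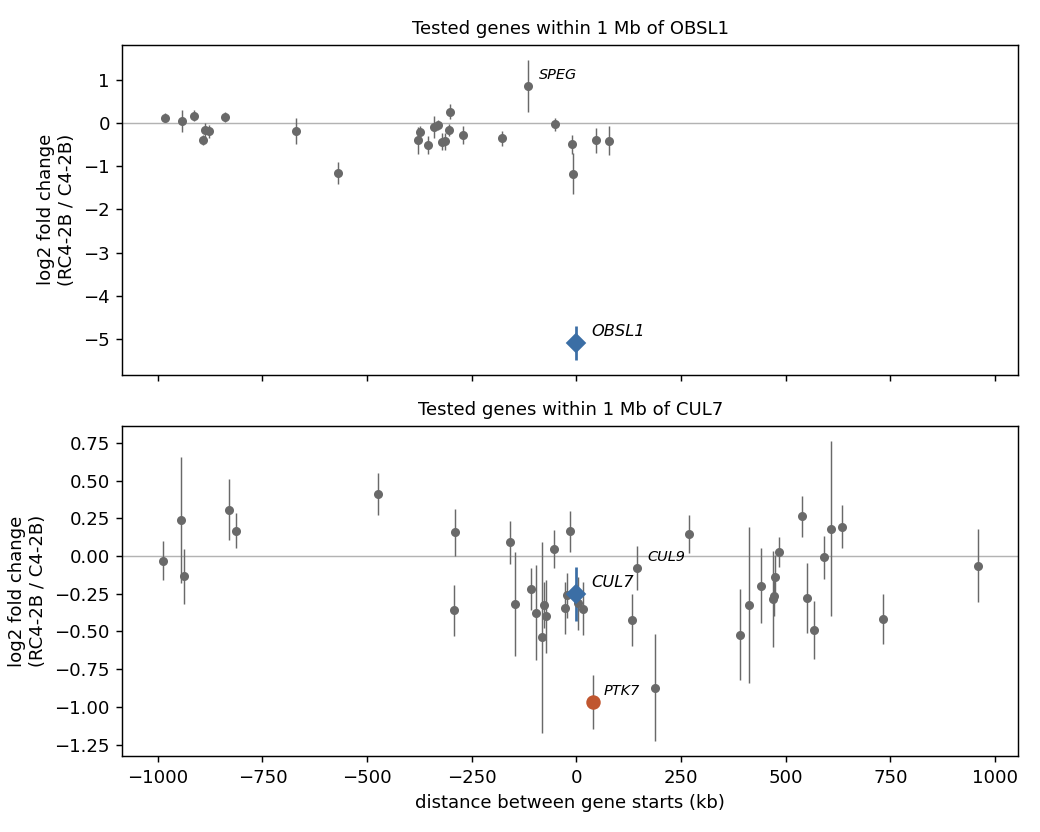
Log2 fold changes with standard errors (vertical axes) of tested genes within 1 Mb of OBSL1 (top) and CUL7 (bottom). The horizontal axis is the distance in kb between gene starts, taken as the lower coordinates (positive towards higher coordinates). Diamonds mark OBSL1 and CUL7, and orange marks the gene that passed the adjusted test. OBSL1, chosen for its loss, is at -5.09, and its neighbours range from -1.18 to 0.86. PTK7 at -0.97 is the lowest near CUL7.

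Over the lists and both neighbourhoods together, without the 6 members and the prostate and stromal marker lists, 1 of 135 tested genes passed (0.741%, against 1.98% of all tested genes). Without RC4-2B replicate 2 the count was 11 of 136 (8.09%, against 12.5% of all tested genes).

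Genes whose pattern over the 6 libraries was most like that of OBSL1 were sought by the root mean square difference of centred log2 CPM. No test was made and nothing is said of shared control. A prior count of 2 was added before taking logs, which shrinks differences at counts as low as those of OBSL1 in RC4-2B, so the ranking depends on it. They were KLK3 (0.228), SOHLH2 (0.379), CCDC187 (0.385), UNC5A (0.422) and FOXF2 (0.470). KLK3, which encodes prostate-specific antigen, ran at 1026, 980 and 916 CPM in C4-2B against 54.7, 31.5 and 59.1 CPM in RC4-2B. KLK3 was thus far lower in RC4-2B, as OBSL1 was, but its RNA there remained well above the floor. UNC5A, a netrin receptor, held 101, 87 and 132 reads in C4-2B against 5, 4 and 4 in RC4-2B, counts much like those of OBSL1. Each of these 5 lay on another chromosome than OBSL1. For FBXW8 the nearest patterns were VRK3 (0.015), YY1AP1 (0.0243), RECQL (0.0273), ATL2 (0.0294) and DHRS7 (0.0352). The pattern of FBXW8, moderately higher in RC4-2B and highest in replicate 2, was thus shared closely by other genes.

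Among the luminal prostate markers, KLK3 fell by 4.33 on the log2 scale (SE 0.24, edgeR adjusted p = 0.000154). TMPRSS2, an androgen-regulated serine protease, fell by 1.08 (SE 0.16, edgeR adjusted p = 0.019), a call that was lost when any C4-2B library or RC4-2B replicate 3 was left out (edgeR adjusted p of 0.0538 to 0.119). The other 6 of the 8 markers did not pass. Of the stromal markers 3 of 4 were at or under the floor in all libraries, and COL1A1 had 23.3 ± 2.02 CPM in C4-2B against 28.7 ± 7.28 CPM in RC4-2B (SD, n = 3 each, edgeR adjusted p = 0.361). Its log2 fold change was 0.30, and it passed without RC4-2B replicate 2 (0.45, edgeR adjusted p = 0.0326) and with the GC offset (0.63, edgeR adjusted p = 0.0182), but was 0.09 without RC4-2B replicate 1. Whether these differences have a part in that of OBSL1 was not tested.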

How the data were processed

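RNAseq was analysed for C4-2B and RC4-2B, with 3 biological replicates each, grouped by sample title. The submitters' processing notes name STAR and GRCh38. The authors deposited whole-number read counts per gene without normalization, and FPKM, per the deposited tables a count divided by gene length and library total. The counting program, strand setting and annotation release are not given in the sources used here.

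Counts were tested in edgeR 4.0.16 (R 4.3.3), with TMM scaling, filterByExpr (minimum count 10) and the quasi-likelihood test over 15054 genes, with p values adjusted by Benjamini-Hochberg and called under 0.05. The study used DESeq2, run here as an alternative (version 1.42.0) beside other scalings, no filter, libraries left out, a replicate block, a GC offset and limma 3.58.1 on log2(FPKM + 1) and log2(FPKM + 0.1). The GC offset with RC4-2B replicate 2 left out was added after seeing the data. Total counts were 15707134 to 18052517 per library, and intervals and floors cover counting error only. Replicate libraries differed by more than sampling noise. The edgeR code was tested on simulated data.

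The members and lists were chosen with earlier results of these data known. Genes named were the members; from each list or neighbourhood those that passed, or up to 2 with the smallest p; SKP1, RBX1, CUL1 and reported targets averaging at least 10 counts; and the 5 nearest patterns to OBSL1 and to FBXW8. Others are said to be chosen after their values were seen. Some genes that the rule or the marker lists hold are not reported here by name. Lengths and coordinates are as deposited. Distances between genes were taken between their lower coordinates, whatever the strand, and are not distances between transcription starts. Promoter windows came from RefSeq (GRCh38.p14) for 2 members, cut where the deposited CCDC8 span began.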

Additional observations from a re-analysis of the deposited data

How the results depend on the processing

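The fitted OBSL1 log2 fold change of -5.09 ranged from -5.34 to -4.83 with single libraries left out, and was -4.59 with the GC offset and -4.66 with RC4-2B replicate 2 also out. CUL7 turned to 0.0006 and 0.0128 in those fits. CUL9 turned to 0.14 and 0.10 in them, and spanned -0.16 to 0.0392 with single libraries left out. CUL7, FBXW8, CUL9 and SPEG did not pass the adjusted test in any fit that gave them a value. The cause was not tested.

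Counts of all genes called moved more. Higher and lower genes numbered 500 and 402 in DESeq2, 604 and 646 without a filter, 46 and 58 in limma on log2(FPKM + 1), 39 and 47 on log2(FPKM + 0.1), 657 and 490 with the GC offset, and 1037 and 1013 with RC4-2B replicate 2 also out. With single libraries left out they spanned 13 to 1000 and 31 to 925. Among the list and neighbour genes, 2 higher and 3 lower passed in DESeq2 and without a filter, 1 higher with upper-quartile scaling, 2 higher and 6 lower with the GC offset, 3 higher and 10 lower with replicate 2 also out, and 0 lower in both limma fits. Single libraries left out gave 0 to 3 higher and 0 to 8 lower. IGF1R passed in 7 of 16 fits, PTK7 in 9 and IRS1 in 4. SKP1 spanned -0.0768 to 0.1485 with single libraries left out, and turned to -0.10 and -0.14 with the GC offset, all libraries or without replicate 2. FBXW5 turned to 0.13 with the GC offset.

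Same-numbered replicates deviated together with correlations of 0.318, 0.178 and -0.069, so the numbers were not taken as pairs. With the replicate number as a block, 55 genes were higher and 74 lower, and 0 list genes were lower. Of the RC4-2B libraries, replicate 1 correlated best with the C4-2B library of its own number and replicate 3 did not. RC4-2B replicate 2 correlated about equally with C4-2B replicate 2 (0.178) and C4-2B replicate 3 (0.173).

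The detection floor, up to 0.188 CPM, applies to each library taken singly. CCDC8 lay under it in both lines and OBSL1 lay at or near it in RC4-2B, so these levels are imprecise. OBSL1 and SPEG had FPKM under 1 and were not in the limma fits.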
